A study of Mus musculus with 5 samples.

Results

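The broad BRG1 peaks of oxLDL-treated wild-type macrophages are the 538 intervals of 1000 bp or more in the oxLDL WT peak list, of 9907 intervals in that list and 14951 in all 4 lists. They were chosen by their deposited width, the end minus the start of the interval, and intervals on chromosome 9 before 3.1 Mb were left out. BRG1 binding was measured by chromatin immunoprecipitation sequencing (ChIP-seq) in mouse bone marrow-derived macrophages, primary cells grown out of bone marrow, with 1 library for each of 4 groups: Baf60a KO with oxidized low-density lipoprotein (oxLDL KO), wild type with oxLDL (oxLDL WT), and Baf60a KO (KO) and wild type (WT) whose labels name no oxLDL. The sources used here do not give the allele, any Cre driver, the number, sex and age of the mice, or how much oxLDL was added and for how long; the 1 input library was not analysed here.

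BRG1 (gene Smarca4) is the motor ATPase in SWI/SNF complexes, which slide and evict nucleosomes at promoters and enhancers. BAF60a (gene Smarcd1) is a smaller subunit of those complexes through which transcription factors can recruit them. Oxidized LDL enters macrophages by way of scavenger receptors, and lipid-laden macrophages are the foam cells of atherosclerotic plaques.

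With 1 library per group no difference between groups has a replicate check, and no test across groups was possible. Shares are given with 95% Wilson intervals, which cover counting error only. In a bulk library, fewer cells with bound BRG1 and less BRG1 per cell cannot be told apart. Fold enrichment here is the peak caller's own value for the summit of a peak over its local background, and it describes a peak within its own list.

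Of the promoter windows that lay wholly inside a broad peak, 5 are printed. They were picked, after their content was seen, because each holds a PU.1 or AP-1 motif, which few of these windows do, so they are examples of those motifs in place and not typical windows. Each window runs from 250 bases before to 50 bases after a start listed by RefSeq for GRCm38.p6, the assembly of the mm10 name, and is written 5′ to 3′ on the strand of the gene. Capitals mark matches on either strand to a PU.1 motif (GAGGAAGT or ACTTCCTC), an AP-1 motif (TGACTCA or TGAGTCA), a CRE (TGACGTCA) or an NF-Y box (CCAAT or ATTGG). PU.1 is the lineage factor of macrophages, AP-1 is the Fos and Jun family, and NF-Y is a general promoter factor. The windows of Irgm1, an interferon-induced GTPase of pathogen defence, and Evi2b, a leukocyte surface protein, lay in broad peaks that met no oxLDL KO peak. Those of Rhog, which encodes a small GTPase of the actin skeleton, Fmnl1, a formin of leukocyte actin, and Srxn1, which repairs oxidized peroxiredoxins, lay in broad peaks that did.
Irgm1: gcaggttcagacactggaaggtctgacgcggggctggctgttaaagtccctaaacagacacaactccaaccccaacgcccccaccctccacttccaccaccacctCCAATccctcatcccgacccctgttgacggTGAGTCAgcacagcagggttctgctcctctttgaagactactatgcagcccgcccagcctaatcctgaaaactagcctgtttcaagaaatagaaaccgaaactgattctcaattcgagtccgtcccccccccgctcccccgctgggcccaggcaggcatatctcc
Evi2b: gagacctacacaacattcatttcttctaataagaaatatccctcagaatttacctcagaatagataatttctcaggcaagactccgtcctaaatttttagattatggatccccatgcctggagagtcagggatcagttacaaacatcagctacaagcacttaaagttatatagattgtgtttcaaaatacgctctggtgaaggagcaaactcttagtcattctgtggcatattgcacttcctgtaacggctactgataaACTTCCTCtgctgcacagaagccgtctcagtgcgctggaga
Rhog: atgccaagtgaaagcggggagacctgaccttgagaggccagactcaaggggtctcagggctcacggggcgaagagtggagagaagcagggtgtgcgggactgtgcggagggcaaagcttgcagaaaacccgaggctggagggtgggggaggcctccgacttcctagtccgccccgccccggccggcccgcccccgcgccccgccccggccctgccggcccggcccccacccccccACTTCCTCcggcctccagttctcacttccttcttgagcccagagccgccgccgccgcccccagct
Fmnl1: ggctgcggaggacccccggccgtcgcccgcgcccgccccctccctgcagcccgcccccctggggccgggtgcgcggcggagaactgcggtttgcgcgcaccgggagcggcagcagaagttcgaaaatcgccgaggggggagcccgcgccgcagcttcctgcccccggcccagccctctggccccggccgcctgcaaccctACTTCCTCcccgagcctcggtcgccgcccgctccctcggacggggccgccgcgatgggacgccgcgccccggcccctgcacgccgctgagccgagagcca
Srxn1: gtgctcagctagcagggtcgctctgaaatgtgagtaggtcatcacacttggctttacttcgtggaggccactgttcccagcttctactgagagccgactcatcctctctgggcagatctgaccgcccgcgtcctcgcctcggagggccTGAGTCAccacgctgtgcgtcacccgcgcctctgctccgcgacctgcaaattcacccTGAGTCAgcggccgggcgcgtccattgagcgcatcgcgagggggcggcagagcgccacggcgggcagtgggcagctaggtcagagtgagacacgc

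These windows lie on mm10 at chr11:48871371-48871670 on the minus strand for Irgm1, chr11:79523713-79524012 on the minus strand for Evi2b, chr7:102250069-102250368 on the minus strand for Rhog, chr11:103170888-103171187 on the plus strand for Fmnl1 and chr2:152105274-152105573 on the plus strand for Srxn1. Counted from 1 at the 5′ end of the window, the Irgm1 window held an NF-Y box at 106 and an AP-1 motif at 136. A PU.1 motif began at 260 in Evi2b, at 236 in Rhog and at 201 in Fmnl1, and AP-1 motifs began at 149 and 206 in Srxn1. No capital stretch in the 5 windows overlaps another.

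In all, 127 listed windows of 111 genes lay wholly inside a broad peak, 187 windows lay wholly inside a narrower oxLDL WT peak, and 21238 windows are listed. The windows inside broad peaks were rich in G and C. Their median GC content was 68.7%, against 70.0% in windows inside narrower peaks and 56.3% in all windows. CpG-rich windows, with GC above 55% and an observed-to-expected CpG ratio above 0.6, made up 68.5% (60.0 to 75.9%) of those in broad peaks, 76.5% (69.9 to 82.0%) in narrower peaks and 40.6% of all. The commonest motif, the SP/KLF box GGGCGGG or CCCGCCC, not capitalized above, was in 56.7%, 57.8% and 33.9% of the same 3 sets, and the NF-Y box in 18.9%, 22.5% and 38.2%. A PU.1 motif was in 9 windows inside broad peaks, or 7.09% (3.77 to 12.9%), against 4.28% (2.18 to 8.21%) in narrower peaks and 3.13% of all windows. An AP-1 motif was in 5.51%, 4.81% and 4.66%, and a CRE in 0.787%, 1.60% and 2.24%. The intervals of broad and narrower peaks overlapped for every motif, and the difference between them was not itself tested.

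The broad peaks were 5.43% of the oxLDL WT list and held 694925 of its 4652922 bp. Their widths ran from 1000 to 3147 bp with a median of 1191.5 bp, 101 were 1500 bp or wider and 17 were 2000 bp or wider. The same width limit gave 56 intervals (1.20%) in the oxLDL KO list, 2 (1.44%) in the KO list and 3 (1.27%) in the WT list. The lists held 4668, 9907, 139 and 237 peaks in oxLDL KO, oxLDL WT, KO and WT, with median widths of 309, 368, 282 and 268 bp, so the width limit sits farther from the middle of the 3 other lists than of the oxLDL WT list. How the number of reads per library bears on list length or width was not tested.

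The widest interval, 3147 bp, lay inside Map3k14, the NF-κB-inducing kinase of the noncanonical pathway (chr11:103262165-103265311), and had a fold enrichment of 4.20. Next came 2741 bp across the start of Irgm1 and 2465 bp across the start of the predicted gene Gm20346 within Anp32a. Then came 2448 bp across the start of Hmga2, an architectural chromatin protein. The interval at the predicted gene Gm46294 inside Rara, the retinoic acid receptor α, was 2396 bp wide. Slc2a1, the glucose transporter GLUT1, followed with 2359 bp inside the gene. The rest of the 20 widest were named by 2900026A02Rik, the tyrosine kinase Ptk2b, the adaptor Sh2b3, the ubiquitin ligase adaptor Spop, Tob2, the annexin partner S100a10, the interleukin 6 receptor Il6ra, Dock10, Chchd6, the proton pump subunit Atp6v1c1, Plcl2, Syngr1, the blood-lineage cofactor Lmo2 and the Polycomb subunit Eed. They were 1967 to 2167 bp wide. At the width limit, Abr had 1000 bp, Pik3ap1 1001 bp, and C77080, Cd52 and an interval on chromosome 8 with no gene near it 1002 bp each. Just outside it, Fcer1g, Rel and Etv6 had 999 bp and Cerk and Tank 998 bp.

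The fold enrichment of the broad peaks ran from 1.88 to 14.7 with a median of 4.59, against a median of 3.67 for the 9341 narrower peaks. The pileup at the summit had a median of 21 fragments in broad peaks and 17 in narrower ones. A −log10 q of 5 or more was reached by 335 of 538 broad peaks (62.3%) and by 23.1% of narrower peaks. The summit lay at a median of 50.6% of the width, with a range of 2.95% to 96.8%. These values come from the contrast that set the widths and are given as description.

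The highest fold enrichment among broad peaks was 14.7. It was in an interval whose summit lay 11984 bp from the nearest end of Ifnar1, a subunit of the type I interferon receptor. Next were 10.9 inside Nrp2, a semaphorin co-receptor, and 10.7 inside Lcp1, the leukocyte actin bundler L-plastin. The intervals across the start of Cables2 and inside Cerk, which encodes ceramide kinase, both had 10.3. An interval named by Tmco5 had 9.45, that of the tyrosine kinase gene Fes 8.79, and that named by Map3k8, which encodes the kinase TPL2, 8.40. Those named by the zinc finger gene Klf13 and the proteasome subunit gene Psma1 had 8.19 and 7.98. The summits of both intervals named by Tmco5 lay 96961 and 110639 bp downstream of its listed start. The Psma1 summit lay 16223 bp upstream of its listed start. Of these 10 intervals of highest fold enrichment, those of Fes with 1843 bp, Cerk with 1758 bp, Klf13 with 1558 bp and Nrp2 with 1542 bp were wider than 1500 bp.

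Genes named 529 of the 538 intervals, with 482 names, and 9 intervals had no protein-coding gene end within 100 kb. Of these names, 45 had more than 1 broad peak. Inpp5d, which encodes the lipid phosphatase SHIP1, and Nek6, a mitotic kinase gene, named 3 each. All 3 Nek6 summits lay more than 20 kb upstream of the listed start of that gene. Pairs were named by Sirpa, the receptor of the CD47 signal, by Cd47 itself, and by Runx1 and Id2, regulators of blood cell fate. Of the Id2 pair, 1 summit lay more than 20 kb upstream of the listed start of Id2. Other pairs were named by Fosl2, an AP-1 subunit gene, Irf5, an interferon regulatory factor gene, and Zc3h12a, whose product degrades cytokine mRNAs. Map3k14, Cerk and Sh2b3 also named pairs. Another oxLDL WT peak lay within 1 kb of 171 broad peaks, or 31.8% (28.0 to 35.8%), against 27.3% (26.4 to 28.2%) of narrower peaks.

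Position was not part of the choice. The summit lay within 1 kb of an end, first or last base, of a protein-coding gene in 169 broad peaks, or 31.4% (27.6 to 35.5%). Narrower peaks had 32.4% (31.4 to 33.3%) and all oxLDL WT peaks 32.3%, so against these gene ends were about equally common. Peaks from 600 to under 1000 bp had a higher share, 36.9% (34.6 to 39.3%), with an interval that overlaps that of the broad peaks. Summits inside a gene were more common, with 261 broad peaks or 48.5% (44.3 to 52.7%), against 41.5% (40.5 to 42.5%) of narrower peaks. Summits more than 20 kb from any gene were less common, with 41 broad peaks or 7.62% (5.67 to 10.2%), against 11.7% (11.1 to 12.4%). The intervals of broad and all narrower peaks do not overlap in these 2 classes. Against the peaks from 600 to under 1000 bp, the share inside a gene was also higher, with 39.7% (37.4 to 42.1%) of those peaks, but the share beyond 20 kb, 10.1% (8.75 to 11.7%), had an interval that overlaps that of the broad peaks. The remaining 67 broad peaks, or 12.5%, had a summit up to 20 kb from a gene, against 14.4% of narrower peaks.

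**Figure D1:**
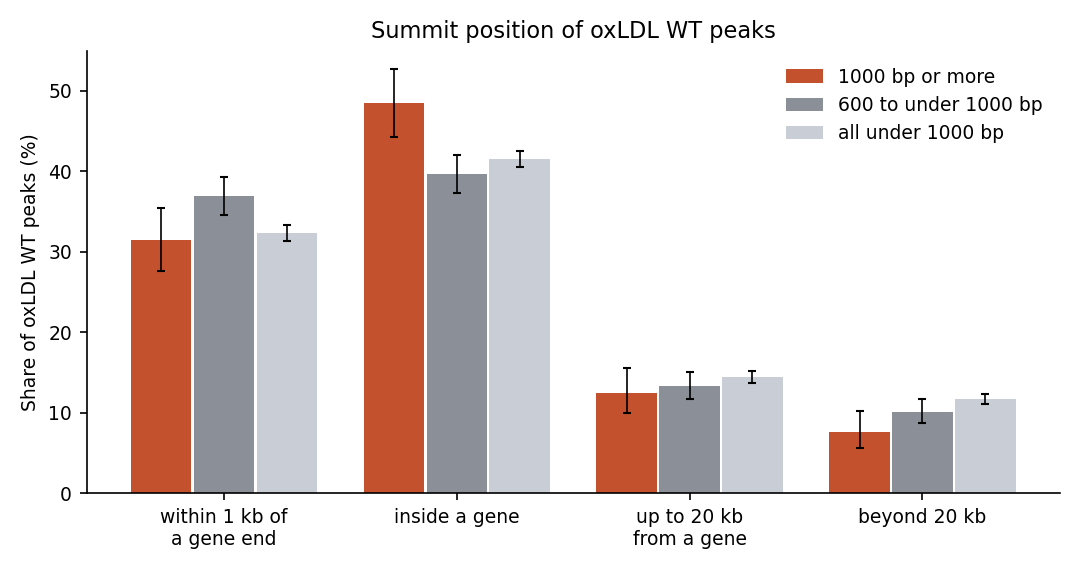
Share of oxLDL WT peaks (vertical axis, %) by the position of the summit to protein-coding genes, for peaks of 1000 bp or more, 600 to under 1000 bp and all under 1000 bp. Bars are shares and lines are 95% Wilson intervals. Summits inside a gene made up 48.5% of the broad peaks and 41.5% of all narrower ones.

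Transcription starts are listed for 17492 of 21887 protein-coding genes (79.9%), and a gene with no listed start cannot be counted. None of the 15 broad peaks on chromosome 18 had a listed start to compare with, so none could be counted near a start. A listed start can lie away from the outermost ends of its gene, so this count is not a part of the gene-end count. A summit within 1 kb of a listed start was found in 194 broad peaks, or 36.1% (32.1 to 40.2%), against 29.9% (29.0 to 30.9%) of narrower peaks. Of the 194, 138 were also among the 169 summits at gene ends. The summit was downstream of the start in 131 of the 194 broad peaks, or 67.5% (60.7 to 73.7%), against 76.6% (75.0 to 78.2%) of the narrower peaks near a listed start. A listed start was spanned by 143 broad peaks (26.6%) and by 5.23% of narrower peaks, which a wider interval does more often by its length. The broad peaks at Irgm1, Hmga2, Tob2 and Il6ra each spanned the start of their gene, and their summits were 282 bp upstream, 783 bp downstream, 368 bp downstream and 200 bp upstream of it. Those at Map3k14, Slc2a1 and Spop lay downstream of the start, with summits 2703, 17218 and 1760 bp into the gene.

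The oxLDL KO list had at least 1 peak sharing a base with 357 broad peaks, or 66.4% (62.3 to 70.2%), against 24.8% (24.0 to 25.7%) of narrower peaks and 27.1% of all oxLDL WT peaks. When oxLDL KO peaks with a −log10 q of 5 or more alone were counted, the share of broad peaks was 23.6%. Peaks were counted as inside a broad peak when they shared at least 1 bp with it, so some run past its ends. A wide interval meets more peaks by its length, so the summit base was compared as well. The summit of 232 broad peaks, or 43.1% (39.0 to 47.3%), was inside an oxLDL KO peak, against 19.6% of narrower peaks, 31.7% of those from 600 to under 1000 bp and 20.9% of all. The difference in the summit base is larger than counting error.

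In the other 181 broad peaks (33.6%) the oxLDL KO list had no peak, against 72.9% of all oxLDL WT peaks. It had 1 peak in 281 broad peaks (52.2%), 2 in 70 (13.0%) and 3 in 6 (1.12%). The 76 broad peaks with 2 or more separate oxLDL KO peaks were 14.1% (11.4 to 17.3%), against 0.289% of narrower peaks and 1.04% of all. Short intervals have little room for 2 peaks, and 0 of 3085 under 300 bp and 0 of 3764 from 300 to under 500 bp held 2. The share was 0.509% from 500 to under 800 bp and 3.21% from 800 to under 1000 bp. The contrast with narrower peaks thus cannot be told apart from their length. The 14.1% became 2.79% when oxLDL KO peaks up to 500 bp apart were joined, and 1.30% when oxLDL KO peaks with a −log10 q of 5 or more alone were counted. These 439 oxLDL KO peaks were 9.40% of their list, and none touched 2 broad peaks. They had a median width of 396 bp and a median fold enrichment of 4.07, against 309 bp and 3.85 over all oxLDL KO peaks.

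**Figure D2:**
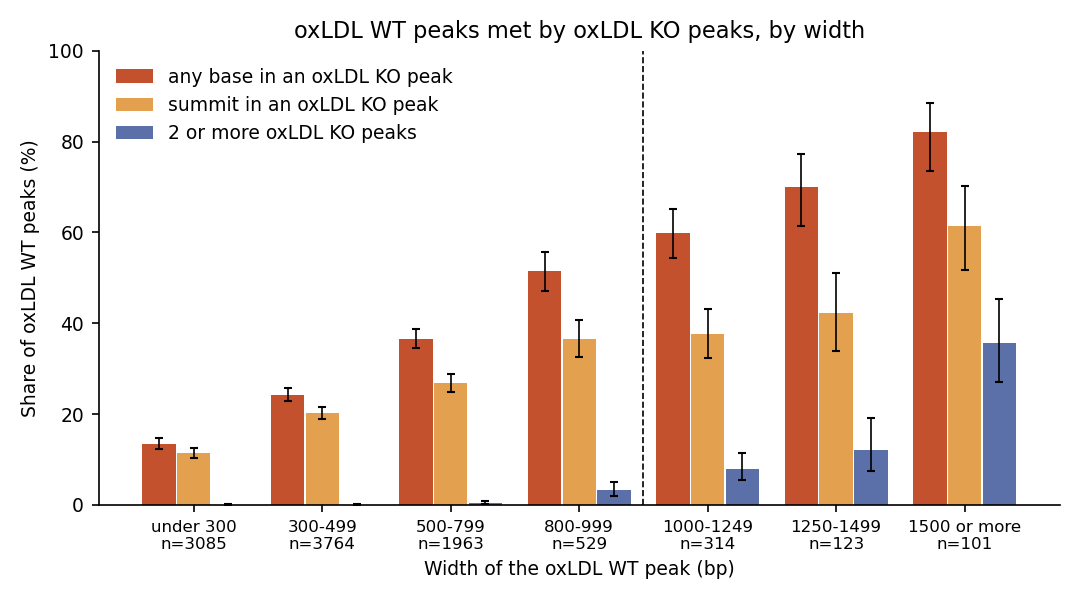
Share of oxLDL WT peaks (vertical axis, %) in each width class (horizontal axis, bp) that shared a base with an oxLDL KO peak, had the summit inside one, or held 2 or more of them. Lines are 95% Wilson intervals and the dashed line marks 1000 bp. At 1500 bp or more the 3 shares were 82.2%, 61.4% and 35.6%.

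Among the broad peaks all 3 shares were higher in wider classes. From 1000 to under 1250 bp (314 peaks) 59.9% met an oxLDL KO peak and 7.96% held 2 or more, from 1250 to under 1500 bp (123 peaks) 69.9% and 12.2%, and at 1500 bp or more (101 peaks) 82.2% and 35.6%. The share with the summit inside an oxLDL KO peak was 37.6%, 42.3% and 61.4% in the same order, and 36.5% among the 529 peaks from 800 to under 1000 bp. Thus broad peaks just above the limit had nearly the same summit share as those just below it.

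The oxLDL WT fold enrichment moved with these shares. Among broad peaks below 4-fold, 28.9% (22.4 to 36.4%) had the summit inside an oxLDL KO peak, and among those of 6-fold or more 71.4% (59.9 to 80.7%). The peaks from 600 to under 1000 bp had 22.2% and 64.9% in the same enrichment classes, and all narrower peaks 14.2% and 58.7%. Within 1 class of enrichment the broad peaks were thus closer to the narrower ones than in the pooled shares, and for the summit their intervals overlapped those of the peaks from 600 to under 1000 bp in all 4 classes. For any shared base they did not overlap in 3 of the 4. Below 4-fold, 58.5% (50.7 to 65.9%) of broad peaks met an oxLDL KO peak, against 35.7% (32.5 to 39.1%) of the peaks from 600 to under 1000 bp. From 4-fold to 5-fold the shares were 63.1% (56.3 to 69.4%) and 47.3% (43.1 to 51.5%), and from 5-fold to 6-fold 74.8% (65.6 to 82.2%) and 56.6% (49.6 to 63.3%). At 6-fold or more they were 81.4% (70.8 to 88.8%) and 71.3% (61.4 to 79.4%), which overlap.

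**Figure D3:**
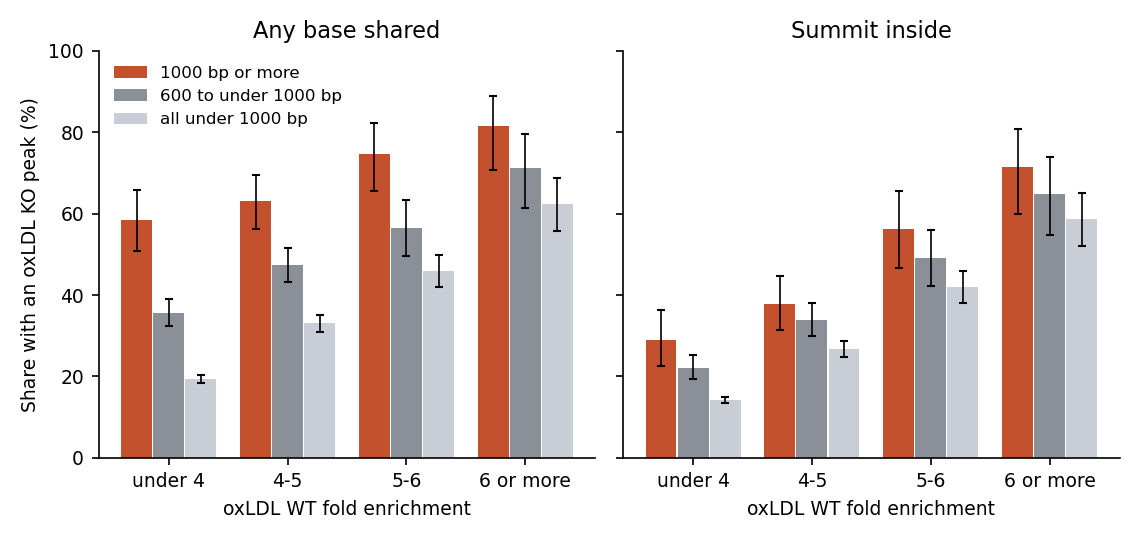
Share of oxLDL WT peaks (vertical axis, %) that shared any base with an oxLDL KO peak (left) or had the summit inside one (right), by class of oxLDL WT fold enrichment (horizontal axis) and width. Lines are 95% Wilson intervals. In the left panel the share of broad peaks was 58.5% below 4-fold and 81.4% at 6-fold or more.

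By position, an oxLDL KO peak met 73.4% (66.2 to 79.5%) of the broad peaks at gene ends, 64.8% of those inside genes, 62.7% of those up to 20 kb away and 53.7% (38.7 to 67.9%) of those farther out. The narrower peaks had 32.4%, 22.5%, 19.6% and 18.7% in the same order. In both width groups gene ends had the highest share, and among broad peaks the intervals of gene ends and of the farthest class overlap.

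Where both lists had a peak, the oxLDL KO peaks were mostly narrower than the broad peak they met. Broad peaks were chosen for their width in the oxLDL WT list, which favours this direction, so no difference between groups is drawn from it. The reverse choice, oxLDL KO peaks of 1000 bp or more, gave 56 peaks with a median width of 1120 bp. The widest oxLDL WT peak met by 54 of these had a median of 875 bp. The widest oxLDL KO peak in each of the 357 had a median of 441 bp and a range of 222 to 1604 bp, and oxLDL KO peaks covered a median of 36.8% of the bases (2.10 to 100%). Over all 538 broad peaks the median cover was 22.6%, or 0 when oxLDL KO peaks with a −log10 q of 5 or more alone were counted, and with all oxLDL KO peaks 187080 of 694925 bp (26.9%) were covered, against 18.1% of the bases of narrower peaks. The nearest oxLDL KO summit was a median of 161 bp from the broad peak's own summit. An oxLDL KO peak that was itself 1000 bp or wider lay in 21 broad peaks (3.90%).

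The separate oxLDL KO peaks inside 1 broad peak were 220 to 892 bp apart, with a median gap of 311 bp over 82 gaps, and their summits were 423 to 1525 bp apart with a median of 728 bp. The smallest gap between neighbours in a whole list was 220 bp in oxLDL KO and 236 bp in oxLDL WT, each 1 bp above the smallest peak width of that list, 219 and 235 bp. In 12 of the 82 gaps the distance was 235 bp or less, which the oxLDL WT list would not hold as a gap, and 15 gaps were 500 bp or more.

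At Map3k14 the oxLDL KO list had 2 peaks of 248 and 441 bp, 253 bp apart and both with a fold enrichment of 3.85, where the oxLDL WT list had 1 interval of 3147 bp. The summit of the second was 4 bp from the oxLDL WT summit. At Slc2a1 the oxLDL KO peaks were 270 and 902 bp wide, both overlapping the oxLDL WT interval of 2359 bp, and the summit of the wider was also 4 bp from the oxLDL WT summit. At Gm46294 inside Rara they were 651 and 1259 bp wide and 631 bp apart, and at Hmga2 542 and 565 bp wide and 804 bp apart. In these 4 genes the oxLDL KO peaks covered part of the oxLDL WT interval, and the bases between them were in no oxLDL KO peak.

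The 6 broad peaks with 3 oxLDL KO peaks were those of Osgin1, Tifa, Igsf6, Prkcd, Lasp1 and Nrp2. At Osgin1, Tifa and Prkcd, 1 of the 3 had its summit outside the broad peak, with 98, 161 and 71 bp inside it. At Osgin1, an oxidative stress response gene, the oxLDL KO peaks were 401, 476 and 650 bp wide against the oxLDL WT interval of 1920 bp, whose summit lay 1631 bp from the gene. At Tifa, an adaptor of NF-κB signalling, they were 283, 415 and 258 bp wide, and at Igsf6, an immunoglobulin family gene of myeloid cells, 260, 287 and 404 bp. At Prkcd, the protein kinase Cδ gene, they were 296, 396 and 466 bp wide, at Lasp1, an actin-binding protein gene, 348, 229 and 225 bp, and at Nrp2 323, 333 and 232 bp. The oxLDL WT intervals of these 5 were 1858, 1818, 1802, 1772 and 1542 bp wide, and their fold enrichments of 6.93, 6.51, 5.25, 3.30 and 10.9 covered both weak and strong broad peaks. The next in number, with 2 oxLDL KO peaks and the greatest width, were Map3k14, Hmga2, Gm46294 and Slc2a1.

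**Figure D4:**
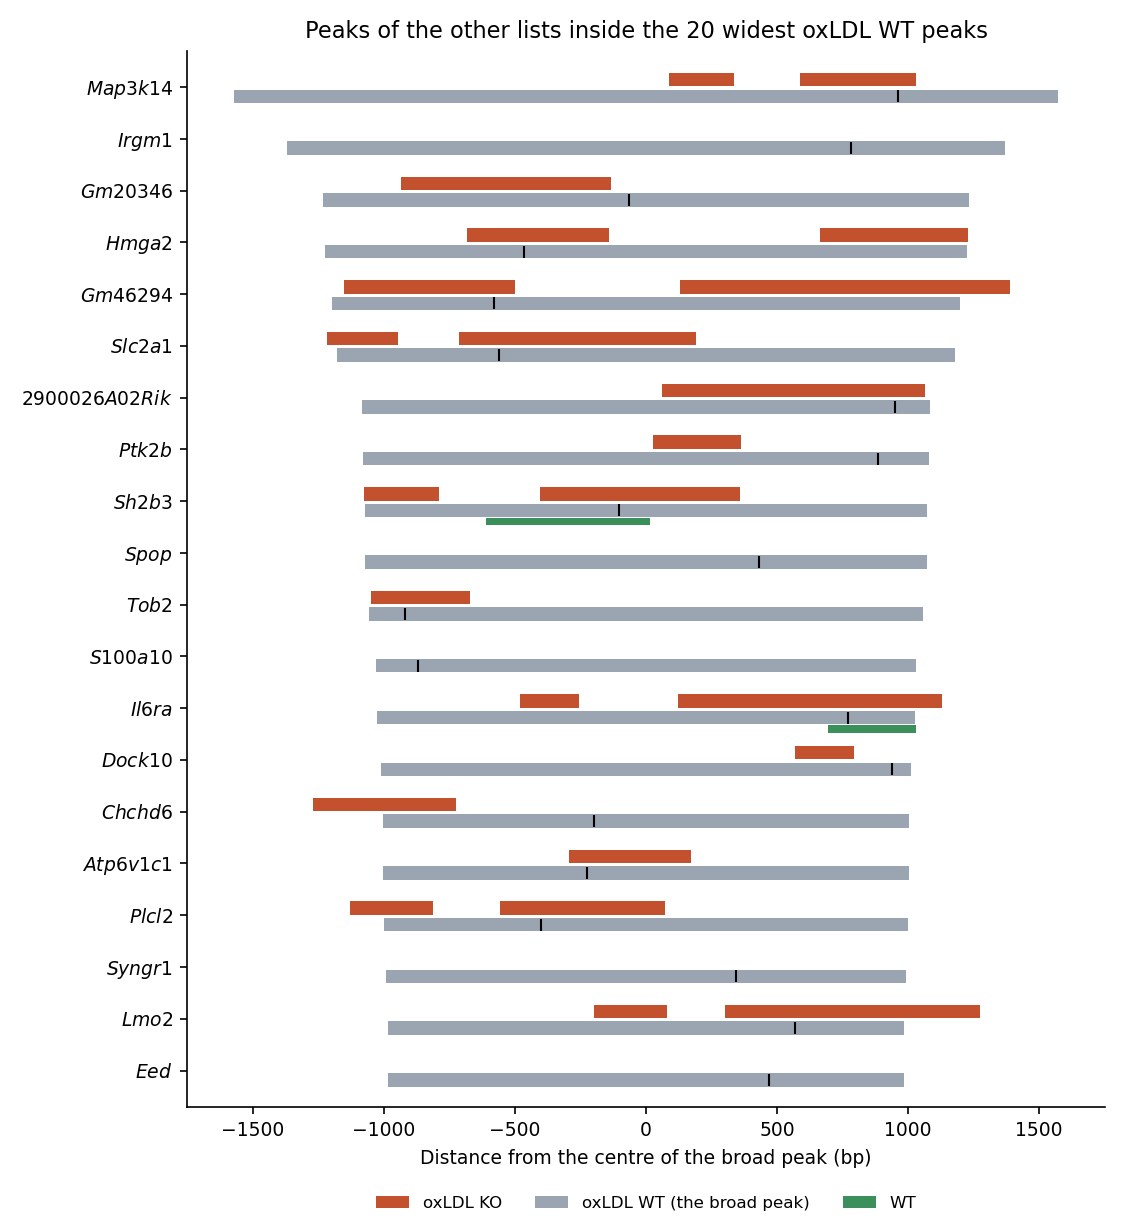
The 20 widest oxLDL WT peaks (grey, summit as a black tick) with the oxLDL KO peaks (red) and WT peaks (green) that share a base with them, drawn to scale by distance from the centre of the broad peak (horizontal axis, bp). No untreated KO peak lay in these 20. Irgm1, Spop, S100a10, Syngr1 and Eed have no oxLDL KO peak, and Map3k14 has 2 in its right part.

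The widest broad peaks with no oxLDL KO peak were named by Irgm1 (2741 bp), Spop (2144 bp), S100a10 (2061 bp), Syngr1 (1983 bp) and Eed (1967 bp). Those named by Lrrfip1 (1948 bp), Wwp2 (1843 bp), Hexa (1748 bp), Gm46353 (1746 bp) and Csf1r (1690 bp) followed. The Eed and Gm46353 summits lay 43135 and 12240 bp upstream of the listed starts of those genes. Hexa encodes a lysosomal hexosaminidase subunit and Csf1r the receptor for the macrophage growth factor CSF1. Their oxLDL WT fold enrichments were 3.99 to 5.88, which spans the median of 4.59 of all broad peaks. Over the 181 without an oxLDL KO peak the median width was 1147 bp and the median fold enrichment 4.38, against 1203 bp and 4.62 with 1 such peak and 1461.5 bp and 4.90 with 2 or more.

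At a few genes the oxLDL KO list had a broad interval too. At Fmnl1 the oxLDL KO peak was 1409 bp wide against 1468 bp in oxLDL WT and covered 93.3% of it, with fold enrichments of 4.75 in oxLDL KO and 5.04 in oxLDL WT. At Foxp1, a forkhead factor gene, the oxLDL KO peak of 1604 bp held the whole oxLDL WT interval of 1191 bp, and at Elmo1, an engulfment adaptor gene, the oxLDL KO peak of 1175 bp held the whole of 1110 bp. The other wide ones by oxLDL WT width were at Gm46294, 2900026A02Rik, Il6ra, Aftph, Setd1b, Gm35364 within Ctbp2, B4galt1, Adap1 and Tbc1d9. At Il6ra the oxLDL KO peaks were 225 and 1006 bp wide, with fold enrichments of 2.89 and 5.88, against 1 oxLDL WT interval of 2053 bp and 7.77.

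The same question was asked from the other list. Of the 56 oxLDL KO peaks of 1000 bp or more, 54 (96.4%, 87.9 to 99.0%) shared a base with an oxLDL WT peak, 21 (37.5%) with a broad one, and 7 (12.5%, 6.19 to 23.6%) held 2 or more oxLDL WT peaks. The share of broad intervals that held 2 or more peaks of the opposite list was thus 12.5% for oxLDL KO intervals and 14.1% for oxLDL WT intervals. The Wilson intervals overlap. The median cover by the opposite list differed, with 69.3% for the oxLDL KO intervals and 22.6% for the oxLDL WT intervals. The opposite lists were of unlike length, with 9907 oxLDL WT peaks and 4668 oxLDL KO peaks. How this bears on the 2 shares and on the cover was not tested. Ppp1r9b, a phosphatase-targeting protein gene, had the widest oxLDL KO interval, 2318 bp, which held 3 oxLDL WT peaks of at most 735 bp. Tet2, which encodes a DNA demethylation enzyme, had an oxLDL KO interval of 1537 bp with 2 oxLDL WT peaks of at most 994 bp.

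Untreated libraries had few peaks in the broad intervals, and few in all, with 139 in the KO list and 237 in the WT list. The KO list had a peak in 15 broad intervals, or 2.79%, against 0.739% of all oxLDL WT peaks, and the WT list in 32, or 5.95%, against 1.53%. Counting only untreated peaks with a −log10 q of 5 or more, the shares were 0.372% for KO and 0.743% for WT. A wide interval meets more peaks by its length, so the summit base was compared as well. It lay inside a KO peak in 2.23% of broad and 0.460% of narrower peaks, and inside a WT peak in 3.53% and 0.953%. Together 42 broad peaks met an untreated list. The oxLDL KO list had a peak in 14 of the 15 that met KO and in 28 of the 32 that met WT. The widest of the 42 were named by Sh2b3, Il6ra, Rhog, Cerk, Gm46353, Cd47, Ttyh2, LOC115489748, Gm5431 and Tfeb. The LOC115489748 interval spanned the start of Cers2. At Sh2b3 the oxLDL KO list had 2 peaks of 287 and 766 bp, the oxLDL WT list its interval of 2147 bp, the KO list none and the WT list a peak of 626 bp. At Cerk the oxLDL KO peaks were 651 and 764 bp wide, the oxLDL WT interval 1758 bp and the KO peak 515 bp, and the WT list had none. At Il6ra the KO list had none and the WT peak was 338 bp wide, with its summit 1 bp from that of the oxLDL WT interval. Cers2 encodes a ceramide synthase, and Tfeb encodes the master factor of lysosome genes.

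All 4 lists had a peak in 5 of the broad intervals. They were at Nrp2, at Ptpn22, a phosphatase gene of immune signalling, and at Junb, an AP-1 gene. The others were an interval named by Tmco5, far from its listed start, and an interval of chromosome 14 without a gene name. At Nrp2 the KO peak was 288 bp and the WT peak 229 bp wide, at Ptpn22 268 and 336 bp, and at Junb 227 and 213 bp. The chromosome 14 interval had a local background of 2317 fragments under a pileup of 4358, the only broad peak with a background of more than 5 times the lowest in its list, and its fold enrichment of 1.88 was the lowest of the 538. At Ifnar1 the oxLDL KO peak was 659 bp wide with a fold enrichment of 11.3 and the same summit base as the oxLDL WT interval of 1215 bp, and the untreated WT peak was 222 bp wide with 6.49 in its own list. Cables2 held 2 peaks in each of 2 other lists, of 501 and 473 bp in oxLDL KO and of 229 and 233 bp in WT.

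Genes were also read from 14 lists, 8 of pathways or the macrophage lineage and 6 of other cell types. The lists were chosen with earlier results of these data known, so their shares are given as description. A broad peak lay in or within 1 kb of 442 protein-coding genes, or 2.02% of 21887, and any oxLDL WT peak in or near 21.9%. The oxLDL WT list had no peak on chromosome X or Y, so no gene there could be counted as having a peak. Broad peaks lay at 30 of the 225 pathway and macrophage genes, or 13.3% (9.50 to 18.4%), and at 0 of 109 marker genes of hepatocytes, neurons, stromal cells, lymphocytes, neutrophils and dendritic cells, with an upper bound of 3.40%. Any oxLDL WT peak lay at 153 (68.0%) and 9 (8.26%) of these genes. By the stricter rule of a broad summit within 1 kb of a gene end, 188 genes (0.859%) counted, 10 of them among the 225. Genes with a broad peak were long, with a median of 43.8 kb, against 34.7 kb for genes with any oxLDL WT peak and 17.2 kb for all genes, and the part of gene length in these counts was not tested. No broad peak lay at Smarcd1 itself, and peak positions cannot check the knockout.

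Of 26 macrophage lineage genes, 24 had an oxLDL WT peak and 7 had a broad one. At Spi1, which encodes PU.1, the oxLDL KO list had 2 peaks of 232 and 1245 bp, the wider running past the end of the oxLDL WT interval of 1198 bp. Trem2, a lipid-sensing receptor gene, also held 2 oxLDL KO peaks in 1440 bp, and Lcp1 held 1 of 241 bp in 1413 bp. Csf1r (1690 bp) and Irf8 (1163 bp), which encodes a myeloid transcription factor, held none. Runx1 had a broad peak of 1262 bp with none and another of 1016 bp of which an oxLDL KO peak covered 4.53%.

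The 25 actin and adhesion genes and the 25 myeloid signalling genes each had broad peaks at 7 members. The actin genes were Actb, Lcp1, Wipf1, Fmnl1, Arhgdib, Arpc2 and Evl, and the oxLDL KO list had no peak in the broad intervals of Wipf1, a regulator of WASP, and Arpc2, a subunit of Arp2/3. The signalling genes were Inpp5d, Ptprj, Pik3ap1, Pik3r5, Sirpa, Tbxas1 and Alox5ap. The 3 broad peaks of Inpp5d were 1596, 1019 and 1204 bp wide and met 0, 1 and 2 oxLDL KO peaks, so intervals inside the same gene differed. Both broad peaks of Pik3r5, a regulatory subunit gene of PI3Kγ, met none. The 1306 bp interval across the start of Ptprj, a receptor phosphatase gene, was covered to 78.2% by oxLDL KO peaks and met a WT peak too.

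The remaining lists had fewer. Lipid handling had a broad peak at 1 of 34 genes, Pparg, the nuclear receptor of fatty acid storage, with 1353 bp, a fold enrichment of 6.09 and no oxLDL KO peak. The inflammatory list also had 1 of 34, Il10, with 1059 bp and no oxLDL KO peak, and any oxLDL WT peak lay at 21 and 19 genes of these 2 lists. The AP-1 and immediate early list had 3 of 26, Fosl2, Zfp36l1 and Zfp36l2, whose last 2 members encode proteins that destabilize mRNA. The SWI/SNF list had 3 of 28, Arid1b, Brd7 and Actb. Actb was also counted in the actin list, and Lcp1 in both the actin and the macrophage list. The lysosome and autophagy list had 3 of 35, Tfeb, Mitf and Hexa, and of these the oxLDL KO list had a peak in that of Tfeb, which it covered to 48.3%.

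**Figure D5:**
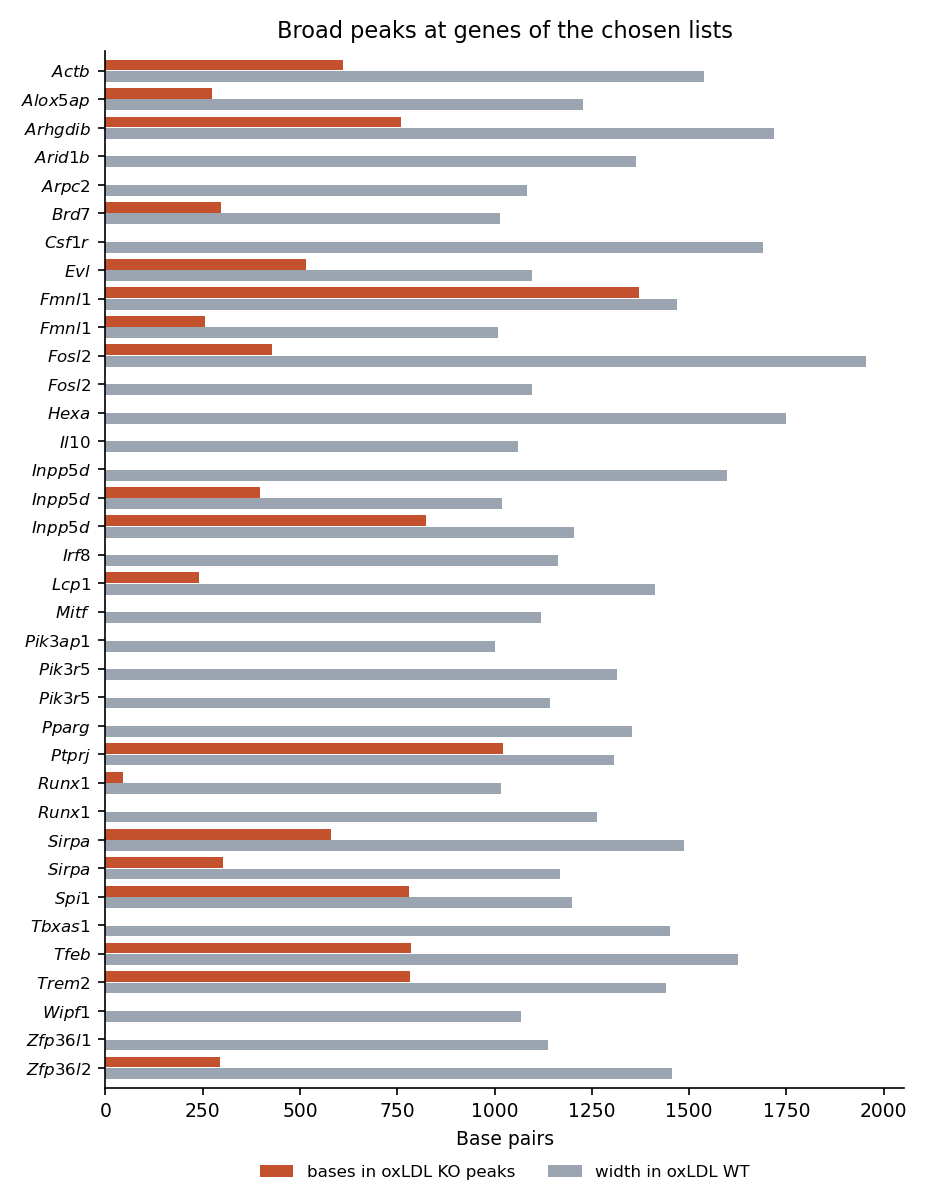
Broad peaks at genes of the pathway and macrophage lists, with the number of their bases inside oxLDL KO peaks (red) beside their width in the oxLDL WT list (grey), in bp. A missing red bar means that no oxLDL KO peak shared a base, as in 17 of the 36 intervals shown.

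Over all 37 broad peaks at genes of these lists the oxLDL KO list had no peak in 18, or 48.6% (33.4 to 64.1%), and 2 or more in 8, or 21.6% (11.4 to 37.2%). The corresponding shares over all 538 were 33.6% and 14.1%, inside both intervals.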

How the data were processed

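Per the labels, BRG1 was precipitated from enzymatically cut chromatin and sequenced as paired ends, with 1 library per group. Tools listed, per the submitters' processing notes, are MACS3, Bowtie2, Trimmomatic 0.33 and bcl2fastq 2.17, with the build mm10. Their settings, and whether peaks were called against the input, are not stated. The authors deposited 1 peak list per library in narrowPeak form, so peaks were called per library, and read depth is unknown. Its columns give the start and end, a fold enrichment (a ratio to local background), the −log10 p and −log10 q, a score that is 10 times the −log10 q, and the summit offset, per the narrowPeak layout of the deposited files.

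Broad peaks were oxLDL WT intervals of 1000 bp or more; overlaps needed 1 shared bp. Pileup and background were worked back from the deposited fold and −log10 p with a pseudocount of 1. Positions were taken from RefSeq protein-coding genes of GRCm38.p6. Names came from a gene end up to 1 kb from the summit, then from the gene around it, then from the closest end up to 100 kb away. Named were the 20 widest, the 10 with most oxLDL KO peaks, with highest fold, widest with no oxLDL KO peak, widest with an oxLDL KO peak of 1000 bp or more, and widest met by an untreated list, the 5 on each side of the width limit, and all at listed genes; Foxp1, Elmo1, the 5 printed promoters, the genes with several broad peaks and the oxLDL KO intervals were named after their values were seen. The members and gene lists were chosen with earlier results of these data known. Overlap code was checked against bedtools 2.31.1 on simulated data; Python 3.11.15, numpy 2.4.6, pandas 2.3.3 and scipy 1.17.1 were used. For 1 macrophage lineage gene the interval is counted but not reported here.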

Additional observations from a re-analysis of the deposited data

How the results depend on the processing

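No paired analysis was possible because each group has 1 library and the labels give no replicate numbers. Of 63 recomputed values that answer a comparison, 37 stayed within the counting interval of the reported share, or near the reported count, and 26 moved farther. A width limit of 800 bp gave 1067 broad peaks, of which 59.0% met an oxLDL KO peak and 8.72% held 2 or more. A limit of 1500 bp gave 101, with 82.2% and 35.6%, a median cover of 26.8% and a WT peak in 9.90%. A −log10 q of 5 or more for the broad peaks left 335, with 71.9% met and a median cover of 26.2%. The same limit on the other lists left 23.6% met by oxLDL KO, 1.30% with 2 or more, a median cover of 0, 0.743% met by WT and 0.372% by KO, since fewer peaks enter. A common −log10 p limit of 5.33 for the other lists gave 61.9% met by oxLDL KO. Counting oxLDL KO peaks only where their summit lay inside gave 11.2% with 2 or more, and joining oxLDL KO peaks up to 500 bp apart gave 2.79%. Gene-end summits were 19.7% within 500 bp, 46.3% within 2 kb and 42.8% for any base of the peak. Listed genes with a broad peak were 10 by a gene-end summit and 53 at 800 bp, against 30. Chosen after seeing the data, the summit base gave 43.1% in oxLDL KO peaks, listed starts gave 36.1% of summits within 1 kb, joining at 235 bp gave 12.3% with 2 or more, and leaving out the chromosome 14 interval of high background gave 66.3% met. The depth of the libraries is unknown, so a peak missing from a list is a peak not called there and is no measure of absent binding.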
